A study of Homo sapiens with 3 samples.

Results

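The genes of the AP-1 transcription factor, FOSL1, FOSL2, FOS, FOSB, JUN, JUNB, JUND and ATF3, were examined for regions of RNA that carry N6-methyladenosine (m6A), a methyl mark on adenosine. Regions were taken as members when their midpoint fell inside a window of hg19 around each gene, which gave 32 of the 41836 deposited regions, 31 on the strand of the gene and 1 on the opposite strand. The windows and genes were chosen with the positions of the regions known, so the number and coverage of regions below are descriptions without a test. The members were chosen by measured values, the positions of the regions in the deposited list. The study captured nuclear RNA of the human breast cancer cell line MDA-MB-231 with a rabbit antibody against m6A in 2 libraries and with rabbit IgG as the control in 1 library. All 3 libraries came from the same line, and the labels name no treatment. The processed data used here are 1 list of regions for the whole series, with positions and strands but no value for a single library. How deeply each library was sequenced, how far a region exceeds IgG and how well the m6A libraries match are thus not known, and values are given without an error.

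AP-1 is a dimer of basic leucine zipper proteins that binds short sites in promoters and enhancers. JUN, JUNB and JUND can pair with one another or with FOS-type proteins, whereas FOS, FOSB, FOSL1 and FOSL2 need a JUN-type partner to bind DNA. ATF3, a stress-induced member of the wider ATF family, can also pair with JUN proteins. Several of these genes are immediate early genes, whose short-lived RNA rises within minutes of a growth or stress signal. FOSL1 encodes FRA-1, which is known to be abundant in mesenchymal-type breast cancer lines such as MDA-MB-231. On RNA, m6A is placed mainly by the METTL3 and METTL14 complex, often at a GGAC core.

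A few sites of the GGAC core in the coding sequences of these genes are printed as examples. Spliced transcripts were taken from GENCODE release 29 (GRCh38), 1 principal transcript per gene, and searched on the RNA strand only, written as DNA. GGAC is in capitals with 8 letters on each side, and the position counts from the A of the start codon. The FOSL2 site at position 174 has near copies in FOS (position 213, 2 of 20 letters different) and in FOSB (position 195, 1 of 20 letters different). The site at 543 is the 1 GGAC in the coding part of FOSL1, and JUN has 2, at 70 and 174.
FOSL2: accagccaGGACctgcagtg
FOS: accagtccGGACctgcagtg
FOSB: accagccaGGACctccagtg
FOSL1: aaggagggGGACacaggcag
JUN: ccgagagcGGACcttatggc
JUN: aagaactcGGACctcctcac
Among these genes, FOSL1, FOSL2 and JUN held m6A regions in nuclear RNA and FOS and FOSB held none. GGAC occurs in 98.7% of 14216 principal protein-coding transcripts, so nothing is read from its presence in genes with or without regions. No genome sequence in hg19 was used, so whether any of these sites lies in a region was not examined.

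The 8 genes differed widely in the number of m6A regions. FOSL1 held 15 regions on its own strand, FOSL2 held 8, JUN 3, JUNB 3 and JUND 2, and no region was listed for FOS, FOSB or ATF3. The members with a region were thus all 3 JUN-type genes, and FOSL1 and FOSL2 among the 4 FOS-type genes. FOSL1 alone accounted for 48.4% of the 31 regions and for 60.3% of the 2713 nt they covered. These numbers depend on the windows. By gene length, only 13 of the FOSL1 regions could be placed inside that gene. The FOSL2 window leaves part of its gene out, and FOSL2 had 11 regions with the 3 just past the window. Without a spread between libraries, neighbouring genes in this order, such as JUN, JUNB and JUND, cannot be ranked.

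**Figure D1:**
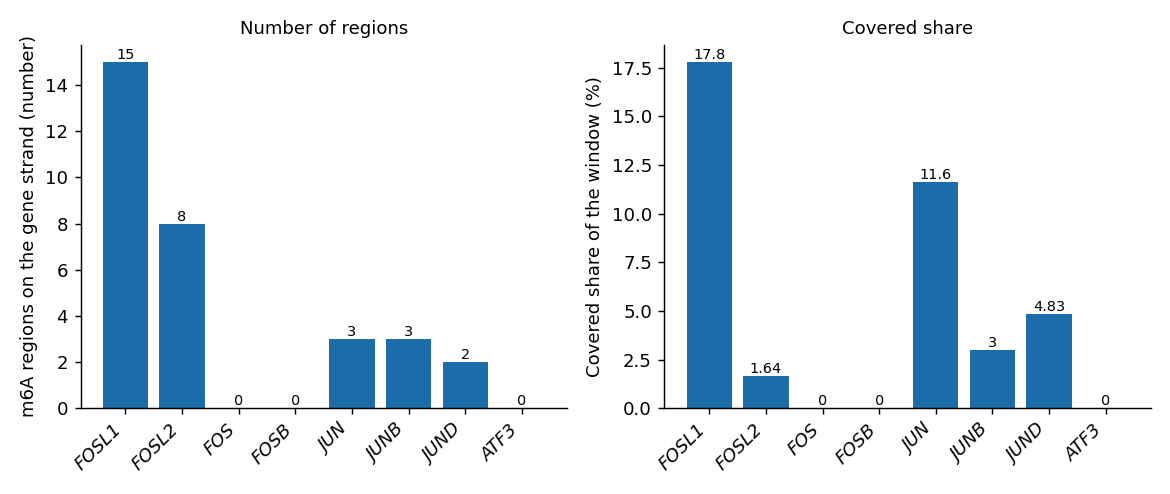
Number of m6A regions on the gene strand (left) and the share of the window they cover in percent (right) for each AP-1 gene. Bars are single values from the deposited list, with no replicates. Windows exceed the gene by different lengths, and the FOSL2 window leaves part of its gene out. Windows extended by 1 kb or shortened by 0.5 kb on each side gave 7.73 and 15.5% for JUN and 2.9 and 7.25% for JUND. FOSL1 has 15 regions and a covered share of 17.8%, JUN covers 11.6% with 3 regions, and FOS, FOSB and ATF3 stand at 0.

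For scale, the genome from the first base to the last region of each chromosome was split into bins as long as each window, separately on each strand. At least 1 region was found in 3.45% of bins of 9.2 kb (the length of the FOSL1 window), 6.50% of bins of 23 kb (FOSL2), 1.86% of bins of 4 kb (FOS and JUN), 3.12% of bins of 8 kb (FOSB), 1.48% of bins of 3 kb (JUNB and JUND) and 12.0% of bins of 57 kb (ATF3). These bins include sequence without genes and were cut at fixed steps, while the windows were placed around genes known to carry regions or not. Nothing is therefore read from 5 of 8 windows holding a region. Bins with at least as many regions as the gene window made up 0.00253% (17 bins) for FOSL1, 0.278% for FOSL2, 0.188% for JUN, 0.117% for JUNB and 0.362% for JUND. Among bins that held a region at all, those shares were 0.0734% for FOSL1, 4.28% for FOSL2, 10.1% for JUN, 7.85% for JUNB and 24.4% for JUND. The median occupied bin of each of those lengths held 1 region.

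**Figure D2:**
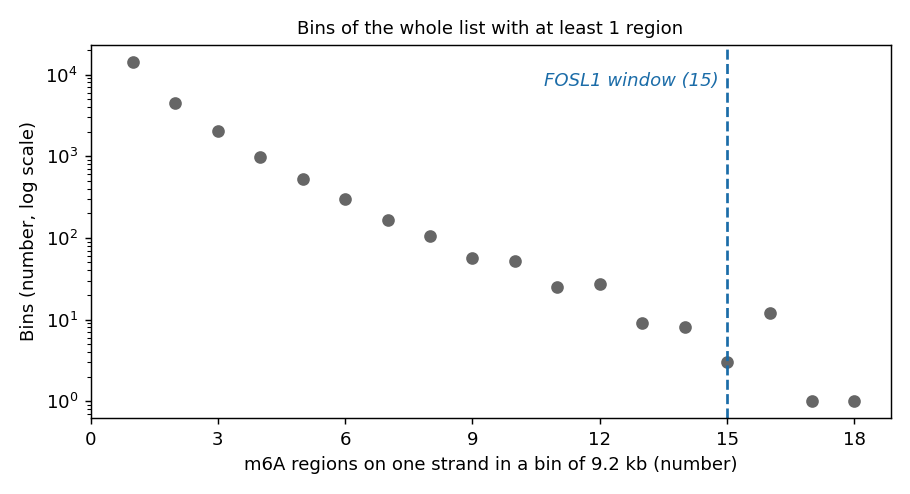
Bins of 9.2 kb on one strand that hold at least 1 m6A region, by the number of regions in the bin (horizontal) and the number of bins on a log scale (vertical). Each point is 1 count class over the whole list, and the dashed line marks the 15 regions of the FOSL1 window. Only 17 bins hold 15 or more regions, and the fullest holds 18.

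FOSL1, which encodes the FOS-type protein FRA-1, carried a dense run of regions along most of its window. Its window spans 65659000 to 65668200 of chromosome 11 (hg19) on the minus strand. It held 15 regions between 65659072 and 65666604, or 1.63 regions per kb. They covered 1637 nt, which is 17.8% of the window and 21.7% of the 7.53 kb they span. The fewer regions of JUN and JUND covered 30.7% and 22.3% of their shorter spans of 1.51 and 0.649 kb. Regions per kb of window were 1 in JUNB, 0.75 in JUN, 0.667 in JUND and 0.348 in FOSL2. By GENCODE lengths in GRCh38, the windows exceed the gene by 1180 nt in JUNB, 1137 in JUND, 675 in FOSL1 and 460 in JUN. The FOSL2 window is 1865 nt shorter than its gene. Densities per kb of window therefore do not rank the genes. No gap between neighbouring FOSL1 regions exceeded 878 nt, and the median gap was 352.5 nt, with the smallest at 113 nt. At a joining distance of 1 kb all 15 regions formed a single chain, and 11 chains in the whole list, this one included, held as many or more. From the upstream end of the gene's strand, 4 regions lay in the upstream part, 6 in the middle and 5 in the downstream part when the window was split into 3 equal parts.

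The widest FOSL1 regions lay in the middle of the window. A region of 324 nt ran from 65664063 to 65664386, with its centre 3.98 kb from the upstream end, and only 148 regions of the list (0.354%) were at least as wide. A region of 225 nt from 65663449 to 65663673 followed it at 4.64 kb, with a region of 21 nt between them at 65663918 to 65663938. Next downstream came 156 nt from 65662707 to 65662862 and 112 nt from 65662418 to 65662529. Toward the downstream end stood 154 nt from 65660610 to 65660763 and 129 nt from 65660129 to 65660257. On the upstream side a region of 125 nt ran from 65666048 to 65666172. These 7 regions over 100 nt made up 74.8% of the covered bases of FOSL1. The other 8 regions were 21 to 79 nt wide.

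The run of regions stopped short of the upstream end of the FOSL1 window. The first region, of 79 nt from 65666526 to 65666604, was centred 1.64 kb from that end. At the other end regions of 48 nt (65659297 to 65659344) and 50 nt (65659072 to 65659121) lay close to the limit of the window. GENCODE lists FOSL1 as 8525 nt long in GRCh38, which is 675 nt shorter than the window. If the gene is as long in hg19 and lies wholly in the window, 13 of the 15 regions are inside it wherever it starts. The pair nearest the downstream limit cannot be placed by that reasoning. The next gene downstream in the annotation is CCDC85B, on the plus strand. The single region of the whole set on the strand opposite to its gene also lay in the downstream part of the FOSL1 window. It was 64 nt wide, from 65659933 to 65659996 on the plus strand.

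The principal FOSL1 transcript has 4 exons that sum to 1669 nt, or 19.6% of the gene. The 15 regions span 7.53 kb along the genome. Exons spread along a gene also span more than their sum, so these lengths alone do not place the regions. Exon limits in hg19 were not used here, so single regions were not assigned to exons or introns. That spliced transcript holds 3 GGAC, or 1.80 per kb, against a median of 3.79 per kb (quartiles 2.51 and 5.44) over 14216 principal protein-coding transcripts, of which 98.7% hold at least 1. It holds no GGACT, which 86.7% of those transcripts contain. GGACT is the same core with one more letter, so every GGACT match is also a GGAC match. FOSL1 was the 1 transcript of the 8 without GGACT, and introns were not searched.

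**Figure D3:**
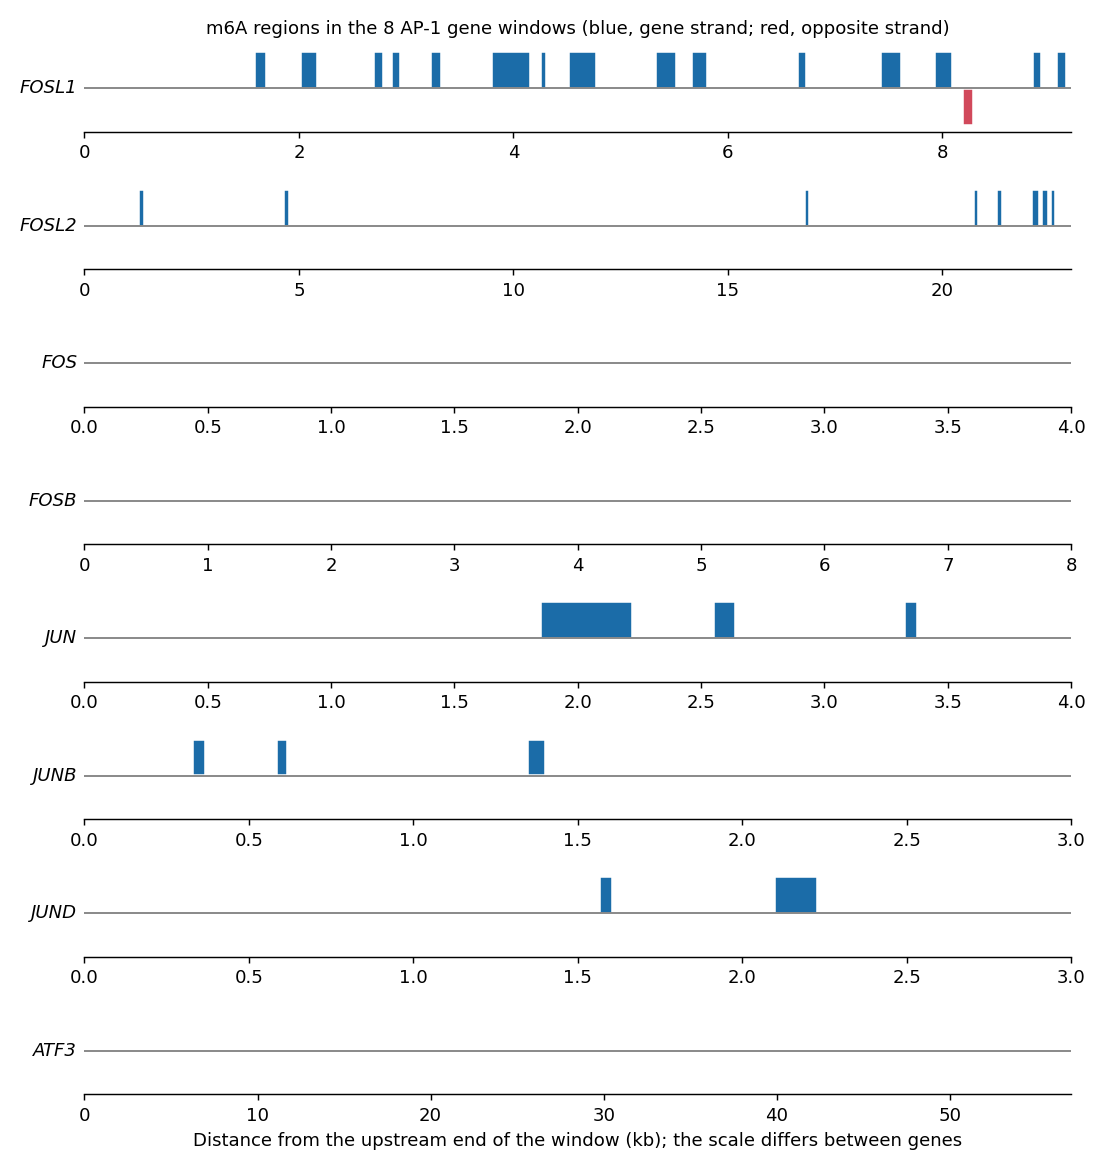
Positions of all 32 m6A regions in the windows of the 8 AP-1 genes. The horizontal axis is the distance in kb from the upstream end of the window on the gene's strand, with its own scale for each gene, and each block is 1 region drawn to its width (blue above the line on the gene strand, red below it on the opposite strand). FOSL1 has blocks spread along its window, the first centred at 1.64 kb, FOSL2 has most of its regions after 20.8 kb, and FOS, FOSB and ATF3 are empty.

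FOSL2, which encodes the related FOS-type protein FRA-2, had narrower regions, most of them near the downstream end of its window. Its window, 28615000 to 28638000 of chromosome 2 on the plus strand, contained 8 regions that covered 377 nt, or 1.64% of 23 kb. In the upstream part, regions of 40 nt (28616299 to 28616338) and 53 nt (28619674 to 28619726) were centred 1.32 and 4.70 kb from the upstream end. A gap of 12099 nt followed, up to a region of 30 nt from 28631826 to 28631855. The other 5 regions lay within the stretch from 28635764 to 28637589, at 20.8 to 22.6 kb, and were 25, 35, 77, 80 and 37 nt wide in that order. Thus 6 of the 8 regions were in the last of 3 equal parts of the window, and none exceeded 100 nt.

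The regions of FOSL2 ran on past the end of its window. Another 3 plus-strand regions followed within 1.66 kb, of 75 nt (28638181 to 28638255), 49 nt (28639101 to 28639149) and 46 nt (28639642 to 28639687). GENCODE gives FOSL2 a length of 24865 nt in GRCh38, longer than the window by 1865 nt, so the window leaves part of the gene out. With those 3 included, FOSL2 had 11 regions, and at a joining distance of 1 kb the downstream chain held 8 regions in 3.92 kb. As many or more were found in 109 chains of the list. The FOSL2 transcript is the longest of the 8, at 6708 nt in 4 exons, of which 978 nt are coding. It holds 39 GGAC (5.81 per kb) and 7 GGACT. The GGACT density of 1.04 per kb compares with a median of 0.927 per kb over the principal transcripts.

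JUN, the founding JUN-type member and itself a target of AP-1, carried the widest region of the whole set. Its window, 59246000 to 59250000 of chromosome 1 on the minus strand, contained 3 regions that covered 464 nt (11.6%). The region nearest the upstream end was 355 nt wide, from 59247789 to 59248143, and 110 regions of the list (0.263%) were at least as wide. It held 76.5% of the covered bases of JUN. Regions of 71 nt (59247372 to 59247442) and 38 nt (59246634 to 59246671) followed downstream, with gaps of 346 and 700 nt. The centres of all 3 lay past the middle of the window, between 2.03 and 3.35 kb from its upstream end.

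JUN, JUNB and JUND have 1 exon each in the principal transcript, so a region inside them cannot be intronic. GENCODE lists 3540 nt for JUN in GRCh38, 460 nt less than the window. On the same condition of equal length and full containment as for FOSL1, all 3 JUN regions are inside the gene and thus exonic. For JUNB and JUND the windows exceed the gene by 1180 and 1137 nt, and this places 1 of 3 and 1 of 2 regions inside the gene. The JUN transcript holds 15 GGAC (4.24 per kb) and 5 GGACT (1.41 per kb).

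JUNB, a partner that often acts against JUN, had only narrow regions. Within 12902000 to 12905000 of chromosome 19 (plus strand) lay regions of 28 nt (12902335 to 12902362), 20 nt (12902590 to 12902609) and 42 nt (12903353 to 12903394). They covered 90 nt, or 3.0% of the window, with centres 0.348, 0.599 and 1.37 kb from the upstream end of the window, which is longer than the gene. Each was narrower than the median of the list. JUNB has the highest GGAC density of the 8 transcripts, at 8.24 per kb, with 8 of its 15 sites in the coding part, and 1 GGACT.

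JUND, the JUN-type member that is widely expressed in resting cells, had a narrow and a wide region. Within 18390000 to 18393000 of chromosome 19 (minus strand), they were 28 nt (18391402 to 18391429) and 117 nt (18390781 to 18390897) wide. They were centred 1.59 and 2.16 kb from the upstream end and covered 145 nt (4.83%). The order along the window therefore differed among the 3 single-exon genes, with the widest region first in JUN and last in JUNB and JUND. This order rests on 2 or 3 regions per gene, and not all of those of JUNB and JUND could be placed inside the gene.

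No m6A region was listed for FOS, FOSB or ATF3, on either strand. The windows searched were 75745000 to 75749000 on chromosome 14 for FOS, 45971000 to 45979000 on chromosome 19 for FOSB and 212738000 to 212795000 on chromosome 1 for ATF3. Flanks as long as each of these windows were empty as well. The list gives no RNA level, so an unmethylated RNA and an RNA too scarce to be captured cannot be told apart. The GGAC core is present in all 3 transcripts, with 7 copies in FOS (3.24 per kb), 22 in FOSB (5.83 per kb) and 6 in ATF3 (2.95 per kb). FOS and ATF3 lie below the median of 3.79 per kb and FOSB above it. GGACT occurred at 1.39 per kb in FOS, 1.32 in FOSB and 1.48 in ATF3, each above the median of 0.927 per kb. Among the genes with regions, GGAC stood at 1.80 per kb in FOSL1, 5.81 in FOSL2, 4.24 in JUN, 8.24 in JUNB and 4.29 in JUND. GGACT in these genes was also above the median in FOSL2 (1.04 per kb), JUN (1.41) and JUND (1.07). It was below the median in JUNB (0.549) and FOSL1 (0). These densities are of spliced transcripts, whereas regions were sought in nuclear RNA over whole windows. The spliced transcript is 3.67% of the gene length in ATF3 and 19.6% in FOSL1. The part of the motif in the number of regions was not tested.

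The rule named a strand for each gene, but regions on either strand were taken as members, and the flanks were not part of it. The genes were chosen with the regions known, so the share on the gene strand is a description only. Of the 32 regions in the windows, 31 (96.9%) had the strand of the gene, which was the minus strand for FOSL1, JUN and JUND and the plus strand for FOSL2 and JUNB. Upstream and downstream flanks as long as each window held 6 regions on the gene strand. Of these, 3 were the regions just past the FOSL2 window. The other 3 were near FOSL1, 1 upstream (65677022 to 65677066) and 2 downstream (65655291 to 65655334 and 65653958 to 65654003). No gene-strand region lay in the flanks of the other 6 windows. On the strand opposite to the gene, these flanks held 1 region. It was 30 nt wide, from 65658309 to 65658338 on the plus strand, 0.677 kb downstream of the FOSL1 window. The gene upstream of FOSL1 in the annotation, C11orf68, is also on the minus strand.

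Of the 9 AP-1 regions wider than 100 nt, 7 were in FOSL1. The median width was 53 nt over the 31 gene-strand regions and 45 nt over the other 41804 regions, and 9 of 31 (29.0%) exceeded 100 nt, against 10.3% of the rest. In FOSL1 the median was 79 nt and 7 of 15 regions (46.7%) exceeded 100 nt. In the other AP-1 genes it was 39 nt, with 2 of 16 regions (12.5%) that wide. Regions elsewhere in 9.2-kb bins with at least 10 regions had a median of 50 nt, and 23.1% of the 1608 exceeded 100 nt. Regions of 1 gene share their RNA and are not replicates, so no test was made. The names of the deposited regions contain the word merged, and the part of merging in these widths was not tested.

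**Figure D4:**
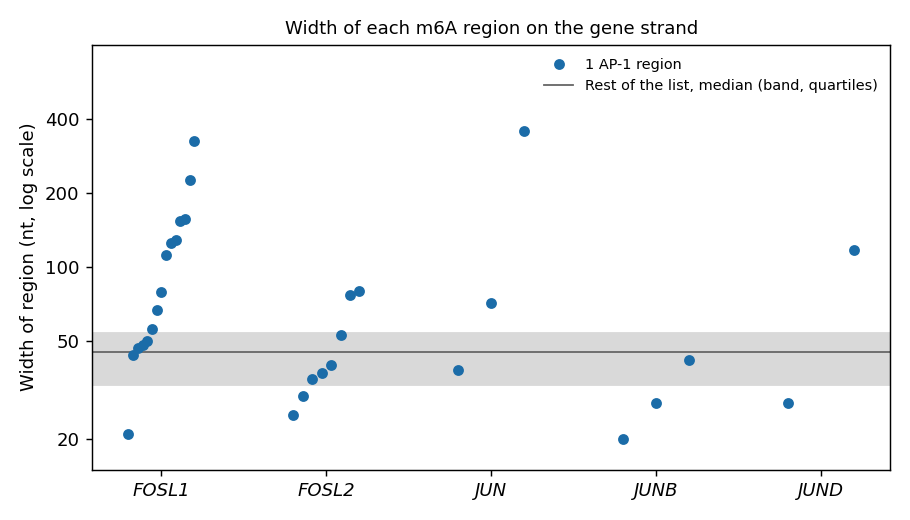
Width in nt on a log scale of each of the 31 gene-strand m6A regions, sorted by width within a gene; each point is 1 region. The line and band give the median of 45 nt and the quartiles of 33 and 54 nt of the rest of the list. FOSL1 and JUN reach 324 and 355 nt, and all 3 JUNB regions lie below the line.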

How the data were processed

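Per the labels' protocols, nuclei of MDA-MB-231 cells were lysed, RNA was immunoprecipitated, released with free m6A nucleoside and made into libraries with a ScriptSeq V2 kit. The submitters' processing notes name Bowtie2 and the build hg19. The Bowtie2 version, the peak caller and its settings, and the role of IgG, were not given in the sources used here. In the list the deposited score is 1 for every region, so the results rest on the start and end that the authors deposited. Read depth is unknown, so no depth-based interval is given.

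Positions count from 1 with the end included. Width is end minus start of the deposited record, and covered share is the summed width of gene-strand regions over the window length. A wide region exceeds 100 nt. Chains joined same-strand regions at most 1 kb apart. GENCODE release 29 (GRCh38) supplied gene lengths, exon numbers, neighbours and transcript sequences (the longest transcript with the first principal tag), and no coordinate was converted. The genes, windows and measures were chosen with earlier results of these data known, and all 8 genes are named. Planned analyses that needed an annotation or genome in hg19 (motifs in regions, exon assignment, other AP-1 family genes) were not run. Alternatives changed the window, the strand, the width and the joining of regions. The counting was tested on simulated regions planted wholly inside windows, on a single strand in each. Regions at a window edge or on the opposite strand were not part of that check. Scripts ran in Python 3.11.15 with pandas 2.3.3, numpy 2.4.6, matplotlib 3.10.9 and scipy 1.17.1.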

Additional observations from a re-analysis of the deposited data

How the results depend on the processing

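The total of 31 regions became 19 both when only regions wider than the list median were kept and when regions up to 500 nt apart were joined, and was 25 to 34 in the other alternatives. FOSL1 then had 7 joined regions, and among regions wider than the median FOSL2 had 3 instead of 8, JUNB 0 and JUND 1. The covered share of all windows, 2.44%, was 2.19% with windows extended by 1 kb on each side, 2.09% with only the wider regions and 2.27% with windows extended by 2 kb downstream, and 2.44 to 2.50% otherwise. Single genes moved more. Windows extended by 1 kb on each side gave 2.9% for JUND, 1.8% for JUNB, 7.73% for JUN and 14.6% for FOSL1, and windows shortened by 0.5 kb gave 7.25% for JUND, 15.5% for JUN and 18.8% for FOSL1. With only the wider regions FOSL2 stood at 0.913%, JUND at 3.9% and JUNB at 0%. In all, 15 of 48 shares of single genes moved beyond their counting interval. That 95% interval treats each base of a window as a separate draw, which bases of the same region are not. It is therefore no measure of error. The 48 shares include those of FOS, FOSB and ATF3, which stayed at 0% in every setting. The share of regions over 100 nt, 29.0%, was 12.5% without FOSL1 and 44% with regions up to 200 nt apart joined. The part of the windows past their middle held 61.3% of regions, and 47.1% with the extension downstream. That extension and the omission of FOSL1 were chosen after seeing the data. The list cannot be split by library, so no library was left out. No paired analysis was possible because no result comes from a test and the list carries no replicate numbers. Without read counts, the depth behind a region and the absence of one cannot be judged.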
